A study of Mus musculus with 96 samples.

Results

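The genes described here encode the voltage-gated sodium and calcium channels and their auxiliary subunits, and were chosen by symbol: every protein-coding gene of the GENCODE M21 annotation whose symbol is Scn followed by a digit, or begins with Cacna1, Cacna2d, Cacnb or Cacng, leaving out the epithelial sodium channel genes (Scnn1). The rule matched 40 genes, and 39 of them had a row among the 19918 genes measured. Scn4a, the skeletal muscle sodium channel gene, was not analysed here. The 39 genes fall into 8 classes by role: 9 sodium channel alpha subunits, 4 sodium channel beta subunits, 4 L type, 3 P/Q, N and R type and 3 T type calcium channel alpha1 subunits, 4 alpha2delta subunits, 4 calcium channel beta subunits and 8 gamma subunits.

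The study profiled polyadenylated RNA from tissue punches of 48 mice, taken in each mouse from the prefrontal cortex (PFC) and from the nucleus accumbens (NAc), with 1 library per region. All mice belonged to the FCG model, in which Sry, the testis-determining gene, is missing from the Y chromosome and is carried instead, in some animals, as a transgene. The 4 genotypes were XX (ovaries), XXSry (testes), XY- (ovaries) and XY-Sry (testes), so every Y chromosome in the study lacked Sry and the contrast of testes with ovaries is also the contrast of mice with and without the transgene. Within each genotype some mice were left unstressed and others went through 3 stress sessions of 1 hour each, spread over 6 days. Control and stress groups held 5 and 6 XX, 6 and 6 XXSry, 7 and 6 XY- and 6 and 6 XY-Sry mice, from 3 cohorts. The sources used here give neither strain nor age.

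An action potential begins when the alpha subunit of a sodium channel opens in response to depolarisation, and beta subunits set its gating and its place in the membrane. The depolarisation then opens calcium channels, whose pore is an alpha1 subunit: L type channels couple activity to gene expression, P/Q and N type channels trigger transmitter release, and T type channels open near rest and support burst firing. The alpha2delta and beta subunits bring these channels to the surface. Most gamma subunits found in brain act as AMPA receptor auxiliary proteins, known as TARPs, rather than as parts of calcium channels. The medium spiny projection neurons of the NAc are inhibitory and quiet at rest, whereas most projection neurons of the PFC are excitatory.

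PFC libraries held 67.6 to 104.4 M counts (median 82.5 M) and NAc libraries 45.9 to 120.8 M (median 73.8 M). These totals exceed the average read number that the labels give, and whether the ends of a pair or multiply mapped reads were counted separately is not stated in the sources used here, so 1 count may not be 1 fragment. Levels are given as CPM, counts scaled to library size with TMM factors, and as RPKM, CPM per kilobase of exons, wherever 1 gene is set against another. In each library the level of Xist and of Ddx3y matched the labelled chromosomes (48 of 48 in either region). The summed level of 10 striatal projection neuron markers ran from 125 to 188 CPM in the PFC and from 1231 to 3604 CPM in the NAc, with all 10 higher in the NAc. That of 8 cortical excitatory markers ran from 2002 to 2426 CPM in the PFC and from 199 to 1049.7 CPM in the NAc, with 7 lower and 1 higher in the NAc. None of these markers was at 0 in every library, and neither sum overlapped between regions, but the cortical sum varied widely among NAc libraries, and PFC libraries 2 and 4 had the lowest cortical sums of their region. The 6 oligodendrocyte markers summed from 685 to 1649.7 CPM in the PFC and from 3486 to 7675 CPM in the NAc, and those of interneurons (9 markers) from 745 to 936 CPM and from 1414 to 2254 CPM, with 5 higher and 4 lower in the NAc. The 5 were Gad1, Gad2, Slc32a1, Lhx6 and Chat, and striatal projection neurons express some of these too, Gad1 and Gad2 among them. Pvalb, Vip, Npy and Sst were lower. Chat stood at 0.325 ± 0.161 CPM in PFC and 11.6 ± 2.33 CPM in NAc libraries. In bulk tissue, fewer cells of a type and less RNA per cell cannot be told apart.

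The first comparison asked how the channel genes differ between the PFC and the NAc of the same mice. The sodium channel subunit gene Scn4b was 10.1-fold higher in the NAc and Cacna1g, a T type calcium channel gene, 3.67-fold lower, and every class but the L type held a member whose level differed at least 2-fold. Of the 39 genes, 35 passed an adjusted p of 0.05 (and 35 an unadjusted p of 0.05, as did 88% of all genes) in edgeR's quasi-likelihood test with the animal as a block, 14 higher and 21 lower in the NAc (44.5% and 43.1% of all genes). Because 87.7% of all 18704 genes tested passed, that count is near the background. A difference of at least 2-fold was found in 20 of 39 (51.3%), 10 higher (9.7% of all genes) and 10 lower (8.62%), against 18.3% of all genes. The ranges over 48 libraries did not overlap for 23 of the 39, against 16.4% of the 19918 genes. The median log2 fold change was -0.29 over the 39 genes and 0.013 over all genes tested. All 39 passed the filter on low counts in this comparison, but 5 of them had a mean below 1 CPM in both regions (Scn10a, Scn11a, Cacna1f, Cacna1s and Cacng1).

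**Figure D1:**
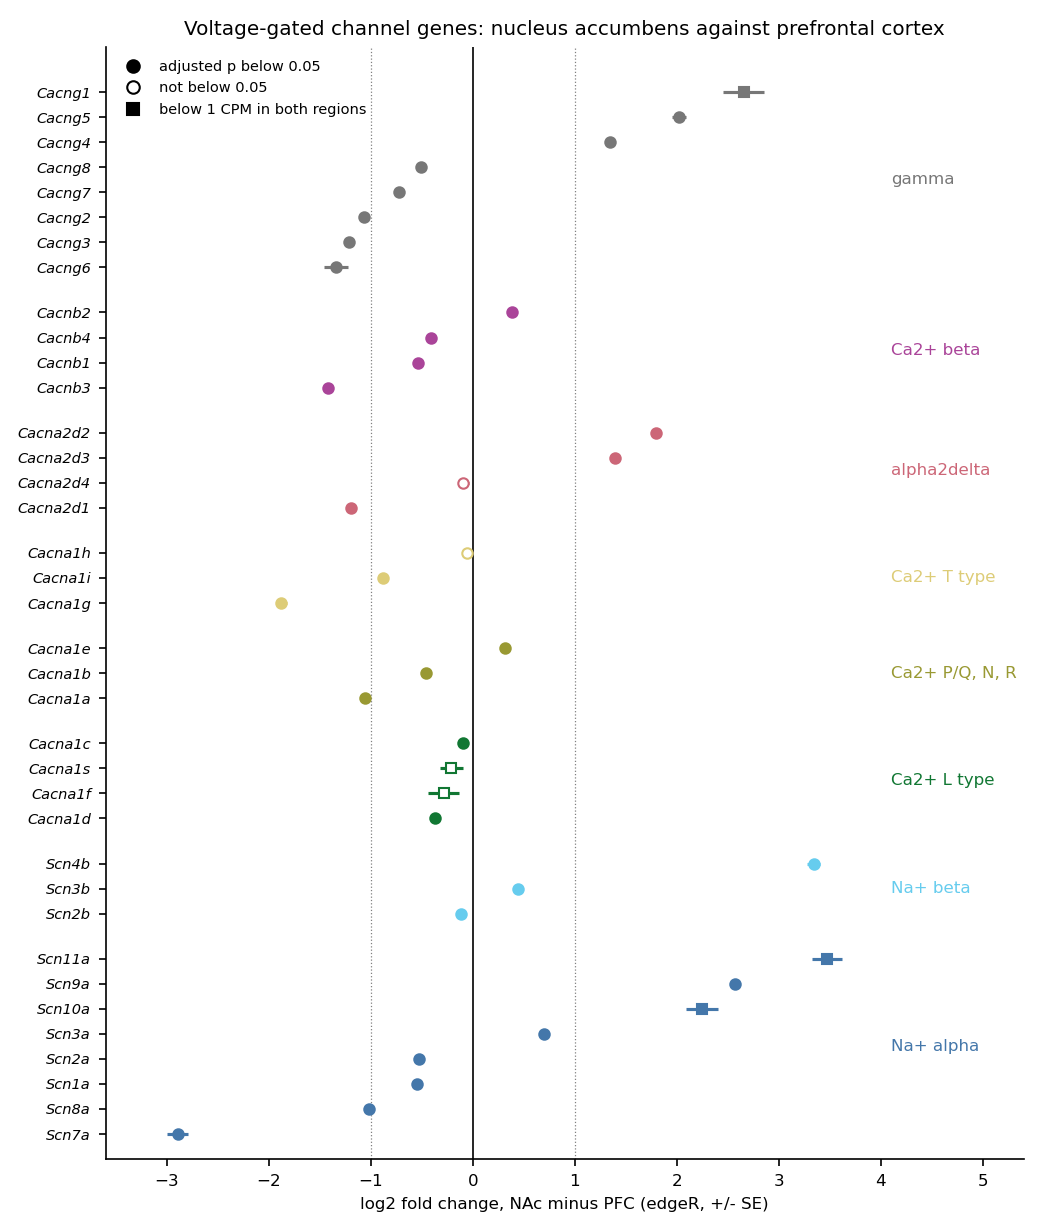
Log2 fold change of 37 channel genes between NAc and PFC (horizontal axis, NAc minus PFC, ± SE, edgeR), grouped by role; open symbols did not pass an adjusted p of 0.05, squares are genes with a mean below 1 CPM in both regions, and dotted lines mark a 2-fold difference. Sodium channel genes reach from -2.89 (Scn7a) to 3.47 (Scn11a), and the L type genes lie between -0.37 and -0.093.

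The 4 sodium channel alpha genes of central neurons made up nearly all of their class's RNA per length in both regions. Scn2a, the alpha subunit of excitatory axons and of medium spiny neurons, took 47.1% ± 1.23 (SD, n = 48) of the summed RPKM of the 9 alpha genes in the PFC against 46.6% ± 2.18 in the NAc. Scn8a, whose channel sits at the axon initial segment and at nodes of Ranvier, took 29.4% ± 0.875 in the PFC against 20.6% ± 1.83 in the NAc. Scn1a, the alpha subunit on which fast-spiking interneurons depend, held 15.2% ± 1.37 and 14.6% ± 1.31. Scn3a, best known from the embryonic brain, held 5.52% ± 0.328 in the PFC against 12.8% ± 1.23 in the NAc. Scn8a ranged from 459 to 607 CPM in the PFC (median 552) and from 209.6 to 350.2 CPM in the NAc (median 271). The lowest PFC library was above the highest NAc library, and the log2 fold change was -1.02 ± 0.026 SE. Scn2a (708 ± 43.3 CPM in PFC and 498 ± 55.2 CPM in NAc libraries) and Scn1a (199.5 ± 22.3 CPM in PFC and 137 ± 15.9 CPM in NAc libraries) were lower in the NAc, with log2 fold changes of -0.53 and -0.55 and ranges that overlapped. Scn1a overlaps Gm13630 on the other strand, and strand use is not stated. Scn3a was higher in the NAc in 48 of 48 mice (80.95 ± 4.14 CPM in PFC and 133 ± 12.1 CPM in NAc libraries, log2 fold change 0.69 ± 0.019 SE).

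The alpha genes known from sensory neurons were low in both regions and higher in the NAc. Scn9a, the channel gene of nociceptors, ranged from 2.67 to 6.83 CPM in the PFC (median 5.08) and from 20.1 to 39.6 CPM in the NAc (median 30.7). All NAc libraries lay above all PFC libraries, with a 5.93-fold difference (log2 fold change 2.57 ± 0.042 SE, adjusted p = 1.66e-42), though Scn9a shares genomic sequence with Gm13629 on the other strand and strand use is not stated. Scn10a and Scn11a, sensory neuron genes that lie beside each other on chromosome 9, stayed below 1 CPM on average (0.125 ± 0.125 CPM in PFC and 0.581 ± 0.261 CPM in NAc libraries, and 0.0468 ± 0.0433 CPM in PFC and 0.526 ± 0.216 CPM in NAc libraries). Over 48 libraries they gathered only 476 and 178 counts in the PFC against 2233 and 1999 in the NAc. Scn7a, a relative that senses sodium and is not opened by voltage, ran the other way. It ranged from 13.1 to 24.9 CPM in the PFC (median 18.96) and from 0.703 to 8.46 CPM in the NAc (median 2.40). The ranges did not overlap, and Scn7a was 7.41-fold lower in the NAc (log2 fold change -2.89 ± 0.10 SE, adjusted p = 4.26e-27), the lowest log2 fold change among the 39.

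Scn9a and Scn8a are the alpha genes, 1 higher and 1 lower in the NAc by at least 2-fold, whose RefSeq promoter window holds no annotated exon, so the 250 bases before each RefSeq start are shown beside these values. The window of Scn8a lies inside the gene as GENCODE M21 annotates it, downstream of the start given there (position 100869858). RefSeq (GRCm38.p6) places them at chr2:66634963-66635212, minus strand, and chr15:100870395-100870644, plus strand. They are written 5′ to 3′ on the strand of the gene, with any match to the motifs searched in capitals. Neither holds a match, so no letter is in capitals.
Scn9a: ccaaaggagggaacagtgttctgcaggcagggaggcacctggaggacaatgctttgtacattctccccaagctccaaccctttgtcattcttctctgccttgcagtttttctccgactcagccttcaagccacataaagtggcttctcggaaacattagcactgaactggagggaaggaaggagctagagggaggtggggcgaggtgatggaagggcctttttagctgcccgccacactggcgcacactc
Scn8a: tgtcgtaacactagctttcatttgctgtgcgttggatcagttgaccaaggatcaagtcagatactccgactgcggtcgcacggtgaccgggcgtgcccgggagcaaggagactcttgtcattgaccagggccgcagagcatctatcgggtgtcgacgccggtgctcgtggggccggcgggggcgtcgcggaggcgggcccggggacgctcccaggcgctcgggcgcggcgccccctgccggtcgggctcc
The Scn9a window has a GC content of 54.4% with 5 CpG dinucleotides and the Scn8a window 68.000% with 30. The motifs were the TATA box (TATAAA), the CCAAT box (CCAAT), the GC box (GGGCGG), the cyclic AMP response element (TGACGTCA) and the E-box (CACGTG), each on both strands. That no motif was found says only that these letters are not in these windows.

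Among the sodium channel beta subunit genes, Scn4b had the highest level per length of the 39 genes in the NAc. Scn4b, whose product is linked to the resurgent current that lets neurons fire again quickly, ranged from 28.7 to 80.5 CPM in the PFC (median 50.3) and from 204 to 925 CPM in the NAc (median 541). Every NAc library was above every PFC library (log2 fold change 3.34 ± 0.063 SE, adjusted p = 3.03e-37), and per length Scn4b stood at 106 ± 23.6 RPKM in the NAc, rank 1 of 39, against 10.5 ± 2.21 RPKM in the PFC, rank 20. Of the summed RPKM of the 4 beta subunit genes, Scn4b held 4.47% ± 0.784 in the PFC against 40.6% ± 5.46 in the NAc. Scn2b, which is linked to alpha subunits by a disulfide bond as Scn4b is, was lower in the NAc by a small margin (339 ± 19.5 CPM in PFC and 316 ± 24.1 CPM in NAc libraries, log2 fold change -0.11 ± 0.015 SE). The gene lies next to Scn4b on chromosome 9, 8.32 kb away. Scn3b was higher in the NAc in 48 of 48 mice (173 ± 11.2 CPM in PFC and 236 ± 10.8 CPM in NAc libraries, log2 fold change 0.44 ± 0.016 SE).

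**Figure D2:**
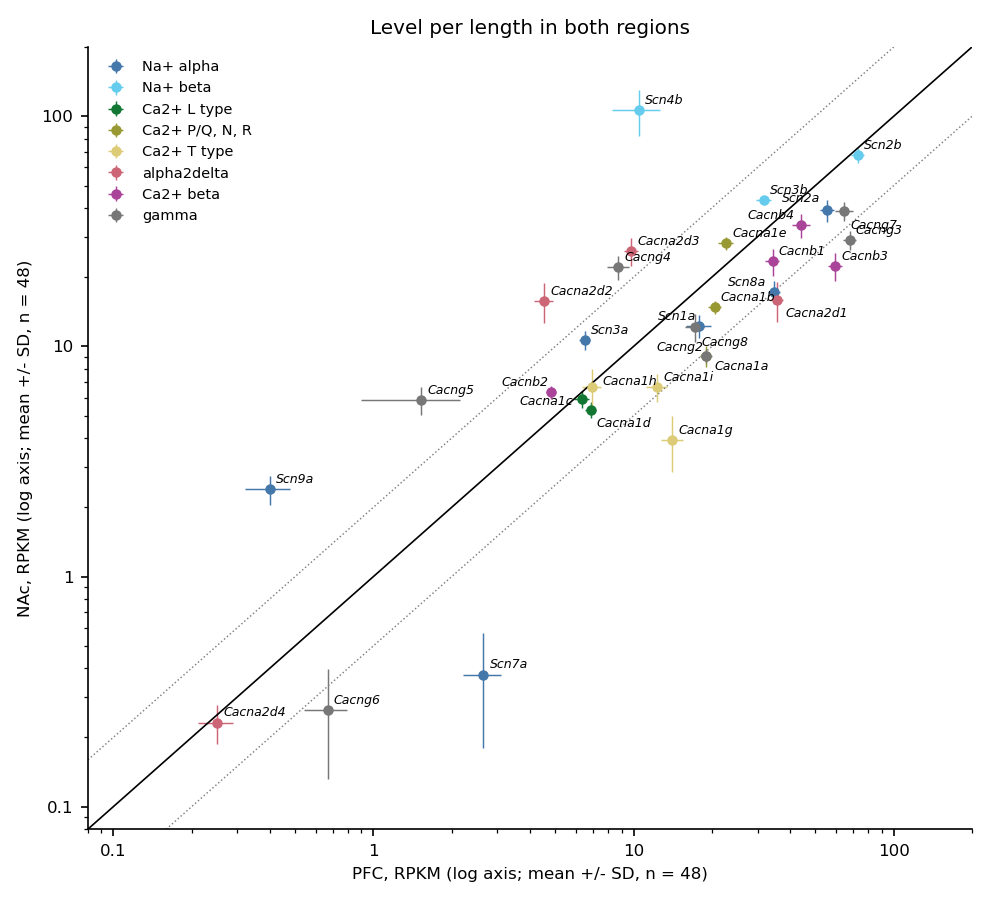
Mean RPKM in the PFC (horizontal, log axis) and in the NAc (vertical, log axis) of 32 channel genes above 1 CPM in a region, coloured by role; bars are the SD over 48 libraries, the solid line marks equal levels and the dotted lines a 2-fold difference. Scn4b stands farthest above the line among the highly expressed genes (10.5 against 106 RPKM), and Cacna2d1 (35.5 against 15.9 RPKM) lies below it.

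The L type calcium channel genes differed by less than 2-fold between regions. Cacna1c and Cacna1d, the L type genes of brain, were lower in the NAc, with log2 fold changes of -0.093 and -0.37 (adjusted p = 1.35e-04 and 4.19e-21). Cacna1c ranged from 115 to 158 CPM in the PFC (median 134) and from 101 to 149.7 CPM in the NAc (median 126), so that most libraries of the regions overlapped, and 14 of 48 mice had the higher value in the NAc. With stressed mice alone the difference of Cacna1c was -0.071 ± 0.044 SE and did not pass (adjusted p = 0.151). Cacna1d ranged from 78.6 to 94.96 CPM in the PFC (median 86.98) and from 53.1 to 78.1 CPM in the NAc (median 66.7), without overlap. Both genes overlap genes on the other strand (Dcp1b for Cacna1c, Chdh and Dcp1a for Cacna1d). Cacna1f, the retinal gene, and Cacna1s, the skeletal muscle gene, stayed below 1 CPM (0.181 ± 0.0710 CPM in PFC and 0.143 ± 0.0835 CPM in NAc libraries, and 0.557 ± 0.177 CPM in PFC and 0.464 ± 0.173 CPM in NAc libraries) and did not pass (adjusted p = 0.0652 and 0.0712).

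The genes of the P/Q, N and R type channels went both ways. Cacna1a, the P/Q type pore of most central synapses, ranged from 192 to 256 CPM in the PFC (median 216) and from 83.999 to 135 CPM in the NAc (median 102). The regions did not overlap (log2 fold change -1.05 ± 0.025 SE, adjusted p = 5.15e-36). Cacna1b, the N type pore, was lower in the NAc by a smaller margin (204 ± 11.4 CPM in PFC and 147 ± 10.1 CPM in NAc libraries, log2 fold change -0.46 ± 0.020 SE). Cacna1e, the R type pore found in dendrites and spines, ranged from 485 to 637 CPM in the PFC (median 569) and from 606 to 813 CPM in the NAc (median 705). Its regions overlapped at their ends, yet 47 of 48 mice had the higher value in the NAc (log2 fold change 0.31 ± 0.020 SE, adjusted p = 3.08e-19). As shares of the 3 genes' summed RPKM, Cacna1e held 36.4% ± 1.51 in the PFC against 54.1% ± 2.34 in the NAc, and Cacna1a 30.6% ± 1.25 and 17.5% ± 1.40.

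Of the T type genes, Cacna1g, the main burst-firing channel of thalamus and deep cortical neurons, ranged from 123 to 185 CPM in the PFC (median 141) and from 22.2 to 73.6 CPM in the NAc (median 36.4). The ranges were apart, and Cacna1g was 3.67-fold lower in the NAc (log2 fold change -1.88 ± 0.057 SE, adjusted p = 8.93e-30). Cacna1i, a T type gene of slower kinetics, ranged from 95.2 to 155 CPM in the PFC (median 121) and from 45.04 to 88.01 CPM in the NAc (median 64.9), also without overlap (log2 fold change -0.88 ± 0.033 SE, adjusted p = 6.51e-28). Cacna1h did not pass (67.5 ± 5.56 CPM in PFC and 64.8 ± 13.2 CPM in NAc libraries, log2 fold change -0.061 ± 0.049 SE, adjusted p = 0.241). The T type class as a whole summed to 33.3 ± 2.46 RPKM in the PFC against 17.2 ± 2.56 RPKM in the NAc, and the share of Cacna1h in it was 20.8% ± 1.11 in the PFC against 38.3% ± 3.53 in the NAc.

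The alpha2delta genes, which set how many channels reach the membrane and are the targets of gabapentin-like drugs (Cacna2d1 and Cacna2d2), exchanged the lead. Cacna2d1 ranged from 369.7 to 525 CPM in the PFC (median 440.2) and from 129 to 312 CPM in the NAc (median 189.7). It was lower in the NAc in every mouse (log2 fold change -1.19 ± 0.045 SE, adjusted p = 4.15e-27). Cacna2d2 ranged from 30.5 to 42.4 CPM in the PFC (median 35.5) and from 67.8 to 193 CPM in the NAc (median 122). It was 3.47-fold higher in the NAc (log2 fold change 1.79 ± 0.047 SE, adjusted p = 9.88e-33), again with no overlap. Cacna2d3 was higher as well (85.4 ± 5.45 CPM in PFC and 226 ± 31.03 CPM in NAc libraries, log2 fold change 1.39 ± 0.034 SE). Of the class's summed RPKM, Cacna2d1 held 70.9% ± 1.51 in the PFC against 27.6% ± 5.86 in the NAc, Cacna2d3 19.5% ± 1.09 and 44.7% ± 4.50, and Cacna2d2 9.04% ± 0.902 and 27.2% ± 5.16. The sum itself was 50.1 ± 2.10 RPKM in the PFC against 57.7 ± 3.83 RPKM in the NAc. Cacna2d4, a gene of the retina that overlaps Lrtm2 on the other strand, was at 2.38 ± 0.362 CPM in PFC and 2.198 ± 0.420 CPM in NAc libraries and did not pass (adjusted p = 0.0965).

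Because Cacna2d1 and Cacna2d3 differed between regions in opposite directions, their promoter windows are shown as well, from the same RefSeq table, at chr14:29721865-29722114, minus strand, and chr5:15934441-15934690, plus strand. Capitals mark matches to the GC box, GGGCGG or its complement CCGCCC, and copies that run into each other are joined.
Cacna2d3: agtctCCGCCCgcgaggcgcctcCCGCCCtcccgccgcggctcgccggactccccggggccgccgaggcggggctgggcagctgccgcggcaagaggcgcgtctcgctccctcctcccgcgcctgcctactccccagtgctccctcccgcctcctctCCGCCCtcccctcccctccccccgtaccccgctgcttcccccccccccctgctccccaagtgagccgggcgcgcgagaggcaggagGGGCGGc
Cacna2d1: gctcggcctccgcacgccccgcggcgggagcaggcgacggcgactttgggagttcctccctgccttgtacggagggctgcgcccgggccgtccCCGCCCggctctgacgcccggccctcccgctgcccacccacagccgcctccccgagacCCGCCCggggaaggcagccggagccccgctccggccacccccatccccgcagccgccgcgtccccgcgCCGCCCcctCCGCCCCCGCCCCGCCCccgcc
Both are CpG-rich, with a GC content of 80.000% and 82.4% and 30 and 36 CpG dinucleotides, against medians of 52.4% and 6 over the 32851 RefSeq promoter windows. The table had a window for 29 of the 39 genes. A GC box was in 12 of the 29 (41.4%) and in 32.7% of all windows, a CCAAT box in 8 (27.6%) and in 33.8%, and a TATA box in 1 (3.45%) and in 12.4%. None of the 29 held the cyclic AMP response element or the E-box, which were in 1.55% and 6.02% of all windows. GC boxes stood in 4 of 9 windows of genes higher in the NAc and in 6 of 18 of genes lower there. A match is a description of the letters and not evidence of a bound factor.

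Of the calcium channel beta genes, which carry alpha1 subunits to the membrane, 3 were lower and 1 higher in the NAc. Cacnb3 ranged from 199 to 276 CPM in the PFC (median 237) and from 65.8 to 125 CPM in the NAc (median 88.98). It was 2.67-fold lower in the NAc without overlap (log2 fold change -1.41 ± 0.034 SE, adjusted p = 1.31e-35). Cacnb2 ranged from 58.4 to 71.9 CPM in the PFC (median 63.2) and from 72.03 to 95.96 CPM in the NAc (median 83.5). The lowest NAc library was just above the highest PFC library (log2 fold change 0.39 ± 0.016 SE, adjusted p = 1.88e-26). Cacnb1 (155 ± 9.71 CPM in PFC and 106 ± 14.1 CPM in NAc libraries) and Cacnb4 (396 ± 31.1 CPM in PFC and 301 ± 35.9 CPM in NAc libraries), the gene mutated in the lethargic mouse, were lower, with log2 fold changes of -0.54 and -0.41. The class summed to 143 ± 4.43 RPKM in the PFC against 85.7 ± 6.06 RPKM in the NAc. Cacnb1, Cacnb2 and Cacnb4 each overlap a gene on the other strand.

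The gamma genes went both ways, 3 higher and 5 lower in the NAc. Cacng5, a TARP, ranged from 4.38 to 18.6 CPM in the PFC (median 5.30) and from 13.6 to 30.3 CPM in the NAc (median 22.5). The ranges met only because 1 PFC library reached 18.6 CPM. That library and those at 10.98 and 13.5 CPM stood above the rest of the PFC, which did not exceed 6.32 CPM, and the difference was 4.06-fold (log2 fold change 2.02 ± 0.066 SE, adjusted p = 4.30e-29). Cacng6, a gene of the muscle-like branch, ranged from 0.883 to 1.85 CPM in the PFC (median 1.29) and from 0.0954 to 1.14 CPM in the NAc (median 0.462). It was low in both regions and lower in the NAc (log2 fold change -1.34 ± 0.11 SE, adjusted p = 5.50e-15). Among the TARPs, Cacng3 (188 ± 10.3 CPM in PFC and 80.7 ± 7.68 CPM in NAc libraries), Cacng2, known as stargazin (105 ± 5.79 CPM in PFC and 50.3 ± 3.68 CPM in NAc libraries), Cacng7 (158 ± 11.9 CPM in PFC and 94.9 ± 8.91 CPM in NAc libraries) and Cacng8 (40.3 ± 3.38 CPM in PFC and 28.5 ± 3.96 CPM in NAc libraries) were lower in the NAc, with log2 fold changes of -1.22, -1.06, -0.72 and -0.51. Cacng4 was higher (31.3 ± 3.09 CPM in PFC and 79.04 ± 9.65 CPM in NAc libraries, log2 fold change 1.34 ± 0.033 SE). Cacng1, the skeletal muscle gamma gene, was higher too, on 155 counts over the PFC libraries against 1026 over the NAc libraries. The summed level of 5 measured muscle markers, of 7 listed, ran from 6.50 to 9.12 CPM in the PFC and from 3.07 to 5.99 CPM in the NAc, with 3 lower and 1 higher among the 4 tested. Acta1, a skeletal muscle actin gene, made up most of the sum and was lower in the NAc (5.81 ± 0.616 against 2.68 ± 0.473 CPM), and Ttn, the titin gene, was higher as Cacng1 was (0.421 ± 0.152 against 1.38 ± 0.404 CPM). Cacng2 and Cacng4 overlap genes on the other strand.

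**Figure D3:**
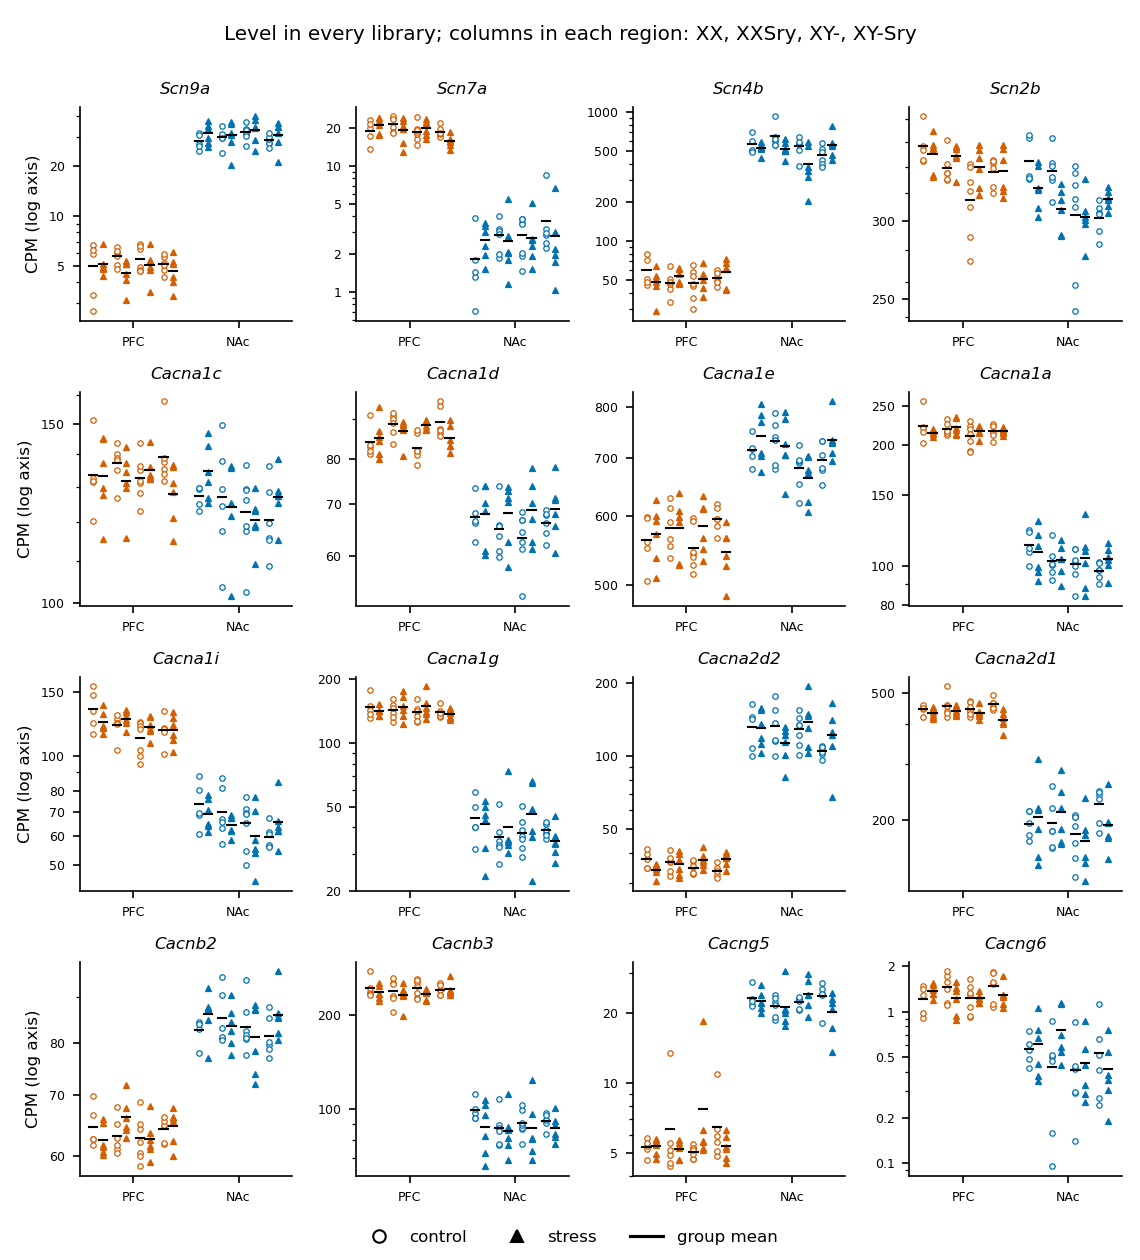
CPM (vertical, log axis) in each of the 96 libraries for the called gene with the highest and the lowest NAc minus PFC difference in every class, among the genes reported; within a region the columns run XX, XXSry, XY- and XY-Sry, with open circles for controls, triangles for stressed mice and a bar at the group mean. The regions separate in most panels, and they overlap widely for Scn2b and for Cacna1c (134 against 125 CPM on average).

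Members that neighbour each other on a chromosome differed in the same direction about as often as in opposite ones (coordinates from GENCODE M21, GRCm38). Of 12 pairs of neighbours less than 500 kb apart, 7 had the same sign, in 6 of them with both genes called, and 5 had opposite signs, all with both called. No test was made of these counts. On chromosome 9, Scn10a and Scn11a lie side by side with no other measured gene between them, and were higher in the NAc by 2.25 and 3.47 on the log2 scale. On chromosome 11, Cacng1, Cacng4 (chr11:107732357-107794557) and Cacng5 lie in a row and were higher by 2.66, 1.34 and 2.02. On chromosome 7, Cacng7 (chr7:3332955-3368221), Cacng8 and Cacng6 were all lower in the NAc. The sodium channel genes of chromosome 2 went both ways: Scn9a (chr2:66480080-66634962) was higher in the NAc and both neighbours, Scn1a and Scn7a, were lower, while Scn3a was higher and the adjacent Scn2a lower. The remaining opposite pairs were Cacna2d3 and Cacna1d on chromosome 14 (1.39 and -0.37) and Scn4b and Scn2b on chromosome 9. Neighbouring members of a family share sequence, so their counts are uncertain where reads could be split between copies.

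The regional differences were then taken within each genotype and treatment. Of the 35 genes that passed, Cacna1c was the only one whose difference changed sign among the 8 groups (1 group at 0.014 and the others below 0). For Scn4b the log2 difference ran from 2.93 to 3.78 over the 8 groups, for Scn9a from 2.32 to 2.75 and for Cacna2d1 from -1.37 to -1.05. Whether the region difference itself changed with stress, chromosomes or gonads was tested in the same edgeR fit. No channel gene passed in any of the 3 tests (0 of 39 each), where 0%, 0.00535% and 0% of the 18704 genes passed, and 1, 2 and 2 genes had an unadjusted p below 0.05 (5.01%, 5.35% and 5.84% of all genes). limma-voom also called 0. The smallest p belonged to Scn9a for stress (log2 difference 0.26 ± 0.092 SE, adjusted p = 0.941), Scn3b for chromosomes (-0.083 ± 0.031 SE, adjusted p = 0.897) and Scn10a for gonads (-1.01 ± 0.35 SE, adjusted p = 0.798).

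The second comparison asked whether stress changed channel gene expression within a region. In neither region did a channel gene pass: edgeR called 0 of 37 tested in the PFC against 0 of 39 in the NAc, where 0% of all 19292 and 19684 genes were called, and DESeq2 and limma-voom called 0 as well. An unadjusted p below 0.05 was found for 3 of 37 in the PFC (5.73% of all genes) against 1 of 39 in the NAc (4.59%). Scn11a and Cacng1 were too low to be tested in the PFC. The median log2 fold change of the members was 0.0025 in the PFC against -0.014 in the NAc. For 36 of 37 genes of the PFC fit and 36 of 39 of the NAc fit the 95% interval lay within a 1.5-fold change either way, so larger changes of the mean over genotypes are outside these intervals.

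The smallest p for stress in the PFC belonged to Cacna2d1. Its lowest, median and highest values were 369.7, 431 and 465 CPM in 24 stressed mice and 421, 452 and 525 CPM in 24 controls. The stressed mice sat lower on average but the groups overlapped over most of their range (429.99 ± 20.97 CPM (n = 24) against 453 ± 23.2 CPM (n = 24), log2 fold change -0.069 ± 0.024 SE, adjusted p = 0.664). By genotype, stressed against control means were 434 ± 15.1 and 446 ± 14.7 CPM in XX, 440.3 ± 14.9 and 456 ± 36.7 in XXSry, 434 ± 17.6 and 447 ± 19.3 in XY-, and 412 ± 26.4 and 461 ± 17.5 in XY-Sry. All 4 differences pointed down, and within cohorts 1, 2 and 3 the log2 fold change was -0.039, -0.12 and -0.11. These are parts of the libraries whose p-value picked the gene, so their signs are no separate support. Cohort 2 held 2 stressed mice and cohort 3 held 3 controls. Scn2b came next, with 344 ± 15.2 CPM (n = 24) against 335 ± 22.4 CPM (n = 24), log2 fold change 0.047 ± 0.022 SE, adjusted p = 0.831. In the NAc the smallest p belonged to Scn3b, with 231 ± 10.1 CPM (n = 24) against 240.2 ± 9.76 CPM (n = 24), log2 fold change -0.055 ± 0.023 SE, adjusted p = 0.997. Cacng1 followed, with 0.237 ± 0.111 CPM (n = 24) against 0.305 ± 0.147 CPM (n = 24), log2 fold change -0.42 ± 0.23 SE, adjusted p = 0.997. Neither passed, and Cacng1 rests on under 1 CPM.

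Scn4b, the gene with the highest NAc level per length, varied more than 4-fold among NAc libraries. In the NAc its log2 fold change with stress was -0.092 ± 0.092 SE, adjusted p = 0.997 (95% interval -0.28 to 0.10). The group means of its level ran from 397 ± 145 CPM in stressed XY- mice to 651 ± 139 CPM in XXSry controls. The lowest of the 48 values, 204 CPM, was in a stressed XY- mouse whose NAc library also had the lowest striatal marker sum. Between stressed and control mice the summed striatal markers of the NAc stood at 2434 ± 473 and 2565 ± 369 CPM and the cortical ones at 549 ± 225 and 570.3 ± 178 CPM, and with the levels of 3 marker lists added to the model edgeR also called 0 channel genes. Treatment was uneven over cohorts, with 2 stressed mice of 12 in cohort 2 and 10 of 13 in cohort 3. The cohorts themselves were compared in the same fit. Cohort 2 minus cohort 1 called 0 of the channel genes in either region (0% of all genes), with unadjusted p-values below 0.05 for 4 of 37 among PFC (7.28% of all genes) and 1 of 39 among NAc libraries (3.82%). Cohort 3 minus cohort 1 called 0 of 37 among PFC (0.482% of all genes) and 0 of 39 among NAc libraries (0%), with 7 of 37 (14.9%) and 3 of 39 (8.17%) at an unadjusted p below 0.05. Cacna1i, lower in cohort 3 in the PFC, came nearest (log2 fold change -0.14 ± 0.039 SE, adjusted p = 0.0812), and DESeq2 called it.

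**Figure D4:**
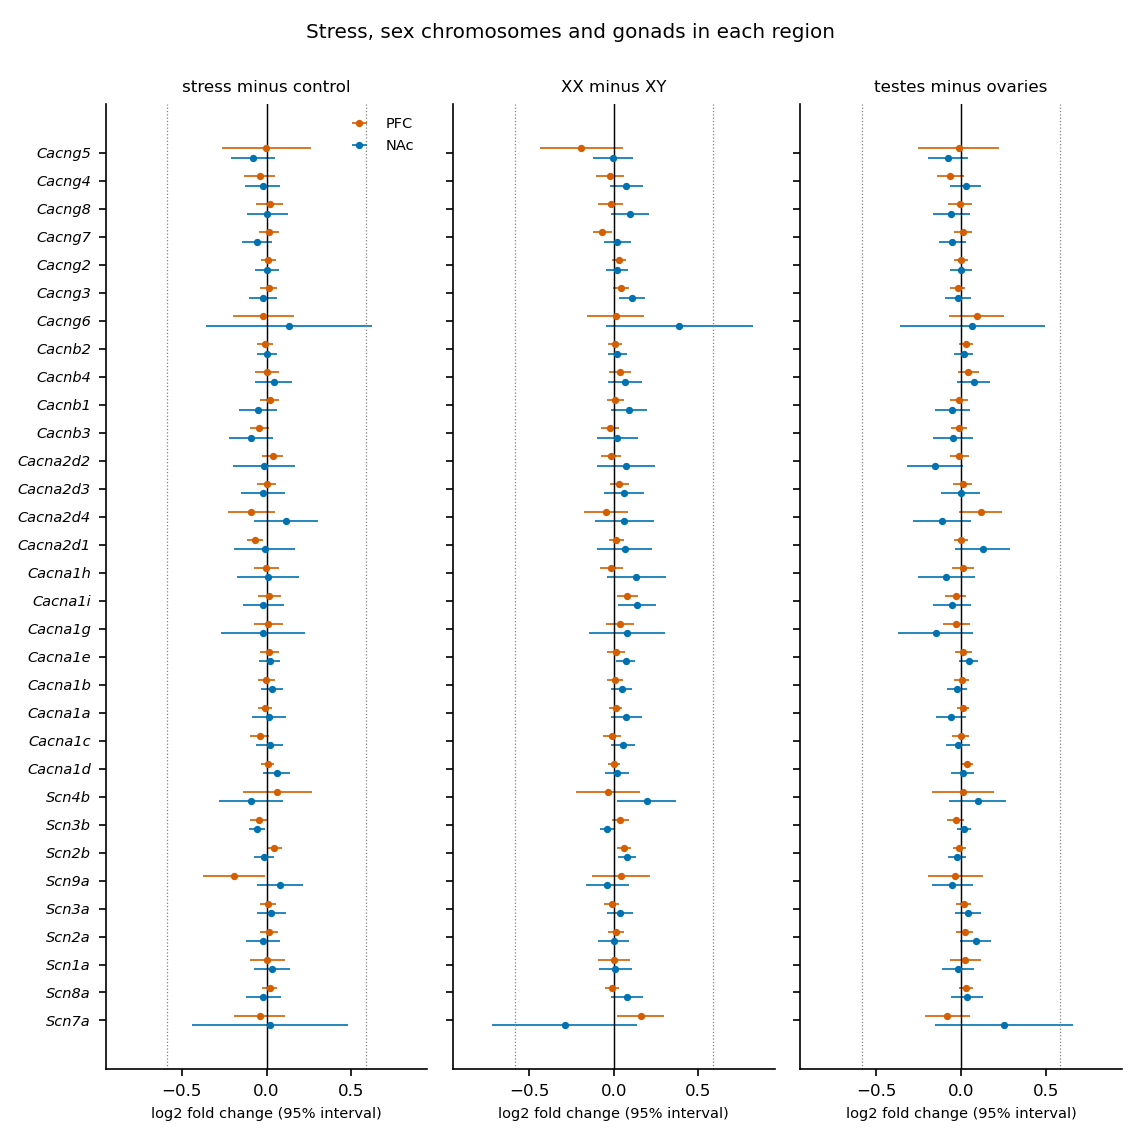
Log2 fold changes (horizontal, with 95% intervals) of 32 channel genes above 1 CPM in a region for stress minus control, XX minus XY and testes minus ovaries, for each region; dotted lines mark 1.5-fold. Most intervals cross 0 and lie inside the dotted lines, and none of these genes passed an adjusted p of 0.05.

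Stress was next compared with control within each genotype. Again edgeR called 0 channel genes in each of the 8 tests, with 0% of all genes called in each, DESeq2 and limma-voom called 0, and unadjusted p-values below 0.05 were found for 0, 3, 7 and 7 of 37 genes in XX, XXSry, XY- and XY-Sry mice in the PFC (3.02%, 5.8%, 9.13% and 6.3% of all genes), while the NAc had 0, 1, 2 and 3 of 39 (3.84%, 2.49%, 4.45% and 6.2%). In XY- mice of the PFC the smallest p-values belonged to Scn2b (339.6 ± 15.8 CPM (n = 6) against 315 ± 25.9 CPM (n = 7), log2 fold change 0.12 ± 0.038 SE, adjusted p = 0.282) and Cacna1d (88.6 ± 1.17 CPM (n = 6) against 82.7 ± 3.04 CPM (n = 7), log2 fold change 0.10 ± 0.033 SE, adjusted p = 0.313). Values of Cacna1d ran from 87.1 to 89.8 CPM in the stressed mice and from 78.7 to 87.3 CPM in the controls, so that they barely met. In XY-Sry mice they belonged to Cacna2d1 (412 ± 26.4 CPM (n = 6) against 461 ± 17.5 CPM (n = 6), log2 fold change -0.16 ± 0.045 SE, adjusted p = 0.739) and Cacna2d2 (37.6 ± 2.47 CPM (n = 6) against 33.7 ± 1.85 CPM (n = 6), log2 fold change 0.16 ± 0.058 SE, adjusted p = 0.739). In XXSry mice Cacna1s had the smallest (0.383 ± 0.158 CPM (n = 6) against 0.660 ± 0.204 CPM (n = 6), log2 fold change -0.84 ± 0.26 SE, adjusted p = 0.787), at a level below 1 CPM. In XX mice they were Cacng2 (104 ± 3.94 CPM (n = 6) against 112 ± 8.47 CPM (n = 5), log2 fold change -0.085 ± 0.043 SE, adjusted p = 1.00) and Cacna2d2 (34.1 ± 1.97 CPM (n = 6) against 37.6 ± 2.96 CPM (n = 5), log2 fold change -0.10 ± 0.060 SE, adjusted p = 1.00).

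In the NAc the same comparisons named other genes, none of which passed. In XY- mice the smallest p-values belonged to Scn3b (229 ± 11.02 CPM (n = 6) against 247 ± 10.7 CPM (n = 7), log2 fold change -0.11 ± 0.040 SE, adjusted p = 1.00) and Scn4b (397 ± 145 CPM (n = 6) against 545 ± 81.8 CPM (n = 7), log2 fold change -0.42 ± 0.16 SE, adjusted p = 1.00). The Scn4b values overlapped, at lowest, median and highest 204, 366 and 589.8 CPM under stress and 382, 565 and 641 CPM in controls. In XY-Sry mice they belonged to Cacng4 (84.4 ± 15.2 CPM (n = 6) against 71.1 ± 6.03 CPM (n = 6), log2 fold change 0.26 ± 0.094 SE, adjusted p = 0.797) and Cacng5 (20.3 ± 4.06 CPM (n = 6) against 23.9 ± 3.001 CPM (n = 6), log2 fold change -0.29 ± 0.12 SE, adjusted p = 0.797). In XXSry mice they were Scn2b (308 ± 15.6 CPM (n = 6) against 337 ± 16.7 CPM (n = 6), log2 fold change -0.12 ± 0.052 SE, adjusted p = 1.00) and Cacng1 (0.202 ± 0.0594 CPM (n = 6) against 0.348 ± 0.219 CPM (n = 6), log2 fold change -0.85 ± 0.43 SE, adjusted p = 1.00). In XX mice they were Cacnb1 (105 ± 14.7 CPM (n = 6) against 119 ± 11.3 CPM (n = 5), log2 fold change -0.21 ± 0.11 SE, adjusted p = 0.967) and Cacng7 (94.1 ± 11.1 CPM (n = 6) against 104 ± 9.43 CPM (n = 5), log2 fold change -0.15 ± 0.083 SE, adjusted p = 0.967). Differences between genotypes in the response were tested by interaction terms and not by setting these values side by side.

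The third comparison set XX against XY mice, averaged over gonads and treatment. No channel gene passed in the PFC (0 of 37, against 1.12% of 19292 genes) or in the NAc (0 of 39, against 0.584% of 19684), by edgeR, DESeq2 or limma-voom. Unadjusted p-values below 0.05 were found for 4 of 37 genes in the PFC (11.6% of all genes) and for 6 of 39 among NAc libraries (5.97%). Scn2b had the smallest p in both regions. Its lowest, median and highest values in the PFC were 328, 349 and 382 CPM in 23 XX mice and 273, 338 and 357 CPM in 25 XY mice, and in the NAc 289, 329.8 and 366 CPM and 243, 309 and 340.2 CPM. The groups overlapped in both regions, with the lowest values in XY mice (348 ± 13.8 CPM (n = 23) against 331 ± 20.5 CPM (n = 25), log2 fold change 0.059 ± 0.020 SE, adjusted p = 0.154 in the PFC, and 328 ± 20.9 CPM (n = 23) against 306 ± 22.2 CPM (n = 25), log2 fold change 0.077 ± 0.027 SE, adjusted p = 0.406 in the NAc). Within cohorts 1, 2 and 3 the log2 fold change was 0.072, 0.059 and 0.028 for PFC libraries and 0.095, 0.086 and 0.020 for NAc libraries. The cohorts are parts of the libraries whose p-values picked the gene, so their signs are no separate support. Second came Cacna1i in the PFC (126 ± 11.02 CPM (n = 23) against 117 ± 10.2 CPM (n = 25), log2 fold change 0.080 ± 0.031 SE, adjusted p = 0.262) and Scn10a in the NAc (0.478 ± 0.177 CPM (n = 23) against 0.677 ± 0.292 CPM (n = 25), log2 fold change -0.57 ± 0.20 SE, adjusted p = 0.453).

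In the NAc 31 of the 39 log2 fold changes between XX and XY were above 0, with a median of 0.059 against -0.00021 over all genes tested, and in the PFC 20 of 37 were, with a median of 0.0013. The summed striatal markers of the NAc stood at 2589.6 ± 345 CPM in XX and 2416 ± 479 CPM in XY mice. With marker levels in the model edgeR called 0 channel genes, as it did without them, and this count does not bear on the signs. The part of cell makeup in the signs was not tested. Cacna1f is the 1 member on the X chromosome. It was near the limit of detection in both regions, with 0.172 ± 0.0641 CPM (n = 23) against 0.190 ± 0.0772 CPM (n = 25), log2 fold change -0.091 ± 0.18 SE, adjusted p = 0.914 in the PFC and a log2 fold change of 0.15 ± 0.29 SE in the NAc.

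The last of the main comparisons set mice with testes against mice with ovaries. It called 0 of 37 channel genes in the PFC (0.0467% of all genes were called) and 0 of 39 in the NAc (0.0102%), by edgeR, DESeq2 or limma-voom, with unadjusted p-values below 0.05 for 2 of 37 (6.74% of all genes) and 0 of 39 (9.28%). In the PFC the smallest p belonged to Scn10a (0.157 ± 0.142 CPM (n = 24) against 0.0935 ± 0.0993 CPM (n = 24), log2 fold change 0.87 ± 0.38 SE, adjusted p = 0.646), which rests on a handful of counts per library, and Cacna1d (87.5 ± 3.58 CPM (n = 24) against 85.1 ± 3.96 CPM (n = 24), log2 fold change 0.037 ± 0.017 SE, adjusted p = 0.701). The Cacna1d groups overlapped over most of their range, and within cohorts 1, 2 and 3 its log2 fold change was 0.030, 0.086 and -0.012. In the NAc it belonged to Scn2a (514 ± 50.5 CPM (n = 24) against 482 ± 55.8 CPM (n = 24), log2 fold change 0.086 ± 0.045 SE, adjusted p = 0.546) and Cacna2d2 (118 ± 24.5 CPM (n = 24) against 132 ± 24.1 CPM (n = 24), log2 fold change -0.16 ± 0.081 SE, adjusted p = 0.546). Within cohort 2 the Scn2a difference was -0.019. The 95% interval lay within a 1.5-fold change for 36 of 37 and 36 of 39 genes.

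Interactions between these factors gave no call either: edgeR called 0 channel genes and 0% of all genes in each of the 6 tests, and DESeq2 and limma-voom called 0 channel genes. Unadjusted p-values below 0.05 were found for 2, 7 and 1 of 37 genes of the PFC fit (3.14%, 6.72% and 4.35% of all genes) and for 2, 0 and 1 of 39 of the NAc fit (3.02%, 2.94% and 2.84%), for stress by chromosomes, stress by gonads and chromosomes by gonads. For stress by chromosomes the smallest p-values were those of Cacna2d2 (log2 difference -0.21 ± 0.055 SE, adjusted p = 1.00) and Cacng7 (log2 difference -0.13 ± 0.053 SE, adjusted p = 1.00) in the PFC and of Scn2b (log2 difference -0.12 ± 0.051 SE, adjusted p = 0.987) and Cacnb1 (log2 difference -0.20 ± 0.10 SE, adjusted p = 0.987) in the NAc. For stress by gonads they were those of Cacna1d (log2 difference -0.11 ± 0.035 SE, adjusted p = 0.604) and Cacna1s (log2 difference -0.69 ± 0.25 SE, adjusted p = 0.623) in the PFC and of Scn3b (log2 difference 0.073 ± 0.041 SE, adjusted p = 1.00) and Cacng4 (log2 difference 0.16 ± 0.091 SE, adjusted p = 1.00) in the NAc. For chromosomes by gonads they were those of Cacna1i (log2 difference -0.13 ± 0.062 SE, adjusted p = 0.994) and Cacng2 (log2 difference -0.080 ± 0.041 SE, adjusted p = 0.994) in the PFC and of Scn11a (log2 difference 0.87 ± 0.28 SE, adjusted p = 1.00) and Scn2b (log2 difference -0.10 ± 0.053 SE, adjusted p = 1.00) in the NAc.

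The 8 group means of each gene in a region were also set side by side. The highest group mean over the lowest was 1.05 for Cacnb1 in the PFC, the smallest ratio of the genes above 1 CPM in a region, and 1.53 for Cacng5. In the NAc it ran from 1.06 for Cacnb2 to 2.02 for Scn7a. By comparison the region ratio of Scn4b, the mean of NAc over PFC, was 10.1. That is far from typical, and for some genes the group ratios were numerically the larger. The ratios are unlike in kind, because a group ratio takes the extremes of 8 means of 5 to 7 mice each. It is therefore at least 1 and grows with the spread among mice, whereas the region ratio uses 2 means of 48 libraries. Of the genes below, Scn2b and Cacna1c passed between regions, and no contrast of stress, chromosomes or gonads called them. The region ratio, PFC over NAc, was 1.08 for Scn2b, 1.07 for Cacna1c and 1.04 for Cacna1h. Their group ratios in PFC and NAc were 1.13 and 1.14, 1.09 and 1.12, and 1.07 and 1.32.

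Genes whose products bind or regulate these channels were compared between regions in the same fit, in which 87.7% of all genes passed (44.5% higher and 43.1% lower in the NAc), so that the counts below are near the background. Of 11 sodium channel partners (fibroblast growth factor homologous factors, ankyrins and other proteins of the axon initial segment), 4 were higher and 7 lower in the NAc, with a median log2 fold change of -0.26. Fgf11 was highest relative to the PFC, at 18.2 ± 1.44 CPM in PFC and 52.5 ± 5.87 CPM in NAc libraries (log2 fold change 1.53 ± 0.033 SE, adjusted p = 9.65e-38), and Fgf13 lowest, at 156 ± 5.25 CPM in PFC and 83.8 ± 9.47 CPM in NAc libraries (log2 fold change -0.90 ± 0.026 SE, adjusted p = 8.38e-33). Of 16 calcium channel partners (calmodulins, active zone scaffolds, RGK proteins and others), 6 were higher, 9 lower and 1 did not pass. Rem2, an RGK protein that inhibits calcium channels, stood at 3.07 ± 0.470 CPM in PFC and 26.9 ± 4.62 CPM in NAc libraries (log2 fold change 3.11 ± 0.048 SE, adjusted p = 8.16e-44), and Cabp1, a calcium-binding regulator, at 91.3 ± 7.71 CPM in PFC and 29.6 ± 6.50 CPM in NAc libraries (log2 fold change -1.64 ± 0.050 SE, adjusted p = 6.90e-30). Of the 4 measured genes of the sodium leak channel complex, of 5 listed, 2 were higher and 2 lower, from Unc79 at 109 ± 5.43 CPM in PFC and 135 ± 8.94 CPM in NAc libraries (log2 fold change 0.31 ± 0.016 SE, adjusted p = 3.26e-23) to Fam155a at 94.4 ± 4.22 CPM in PFC and 41.3 ± 8.10 CPM in NAc libraries (log2 fold change -1.23 ± 0.044 SE, adjusted p = 1.20e-27). Neither stress (0% of all genes in either region) nor gonads (0.0467% in the PFC and 0.0102% in the NAc) called a partner gene in edgeR. XX against XY called 1, the scaffold gene Akap5 in the PFC, at 182 ± 11.1 CPM in XX (n = 23) and 191 ± 9.997 CPM in XY mice (n = 25), a log2 fold change of -0.093 ± 0.022 SE (adjusted p = 0.0148).

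NAc libraries differed in the markers of neighbouring cell types, and the levels of some channel genes varied with them. Each gene's log2 CPM was correlated over the 48 libraries of a region with the log2 sum of the cortical excitatory markers, and in the NAc also with that of the striatal markers, which gives 117 relations. P-values are from 100000 permutations, with Benjamini-Hochberg adjustment over the 117, 1e-05 is the smallest unadjusted value they can give, and relations at that floor have an adjusted value of 9e-05. Both quantities share a library and its scaling. With the cortical sum in the NAc, Scn8a had Pearson r = 0.75 and Spearman rho = 0.75. Scn9a ran the other way, with Pearson r = -0.72 and Spearman rho = -0.73. The adjusted p was 9e-05 for both, and without the libraries farthest from the median r was 0.75 and -0.72. Within cohorts 1, 2 and 3 (n = 23, 12 and 13) r was 0.81, 0.38 and 0.79 for Scn8a and -0.76, -0.63 and -0.72 for Scn9a.

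With the cortical sum in the NAc, 17 of the 39 genes passed an adjusted p of 0.05, 9 positively and 8 negatively. The lowest |r| that passed was 0.34, and of the 18326 genes no lower in mean CPM than the lowest channel gene, markers of the list left out, 13.2% reached it in the positive and 11.9% in the negative direction. Of the 21 genes lower in the NAc, 9 correlated positively and 0 negatively, and of the 14 higher in the NAc, 7 correlated negatively and 0 positively. The shares among all genes lower or higher in the NAc were not taken, for this sum or the striatal one. Whether such a split is particular to channel genes was therefore not tested. With the striatal sum 15 of the 39 passed, 12 positively and 3 negatively (9.9% and 9.51% of all such genes). Of the 14 genes higher in the NAc, 7 correlated positively with it and 0 negatively, but the 21 lower ones were mixed, with 4 positive and 3 negative. The 4 were Scn2b (Pearson r = 0.50 and Spearman rho = 0.48), Cacna1c (Pearson r = 0.52 and Spearman rho = 0.57), Cacna1i (Pearson r = 0.56 and Spearman rho = 0.42) and Cacnb4 (Pearson r = 0.51 and Spearman rho = 0.26). With the striatal sum, Scn4b had Pearson r = 0.90 and Spearman rho = 0.80 and Cacna2d3 Pearson r = 0.90 and Spearman rho = 0.91 (adjusted p = 9e-05 for both). Without the libraries farthest from the median r was 0.88 and 0.88, and within the cohorts it was 0.84, 0.84 and 0.97 for Scn4b and 0.91, 0.89 and 0.93 for Cacna2d3. Cacna1g was lower where the striatal sum was higher (Pearson r = -0.67 and Spearman rho = -0.68, within cohorts -0.66, -0.45 and -0.74). Cacna2d2, though higher in the NAc, showed no relation to the striatal sum that passed (Pearson r = 0.14 and Spearman rho = 0.25, adjusted p = 0.453). Its r was 0.29 without the libraries farthest from the median, and 0.55, 0.15 and -0.28 within the cohorts, which differ in sign. With the cortical sum it had Pearson r = -0.62 and Spearman rho = -0.62, and -0.72, -0.47 and -0.53 within the cohorts. In the PFC, where the cortical sum varied less, 9 genes passed, all positively (12.8% of all such genes were as high and 6.02% as low), led by Cacnb1 (Pearson r = 0.67 and Spearman rho = 0.66). How much of the region difference of any gene comes from cell makeup was not tested.

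**Figure D5:**
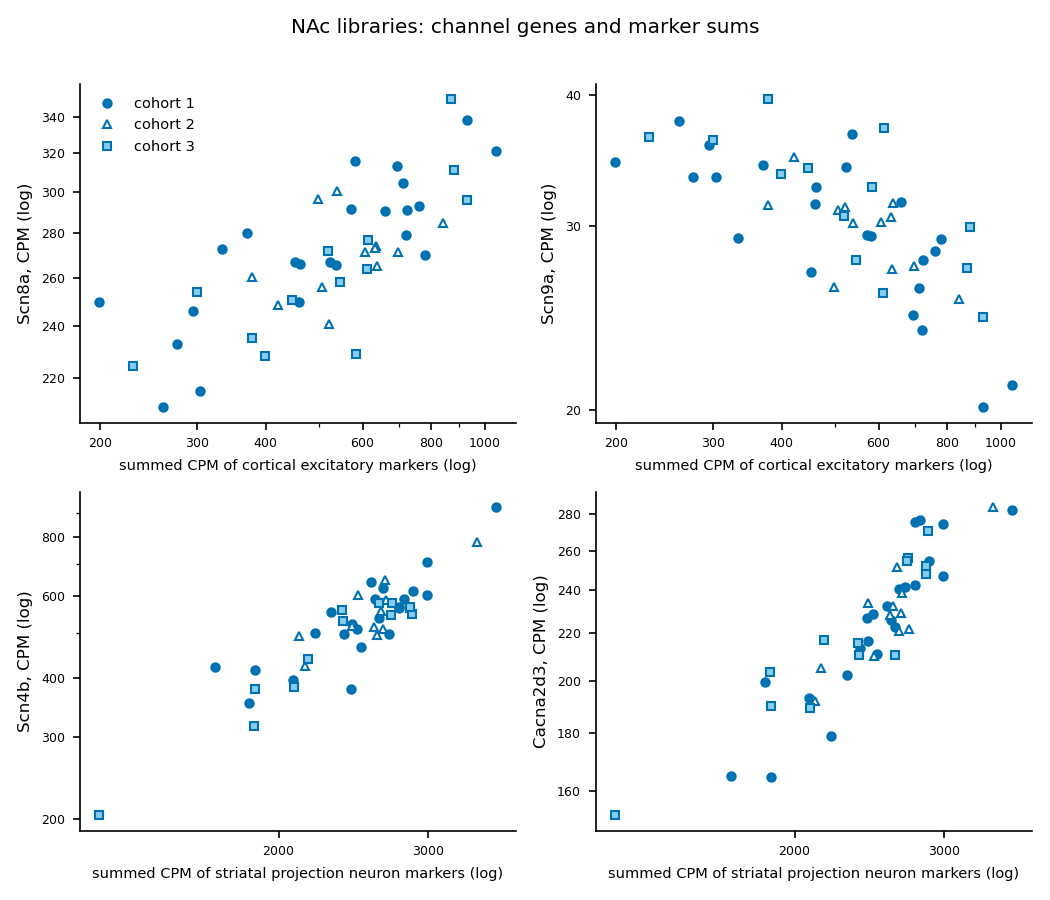
CPM of 4 channel genes (vertical, log axis) against a summed marker level (horizontal, log axis) in the 48 NAc libraries, by cohort. Scn8a rises (r = 0.75) and Scn9a falls (r = -0.72) with the cortical excitatory markers, and Scn4b (r = 0.90) and Cacna2d3 (r = 0.90) rise with the striatal markers.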

How the data were processed

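RNA-seq libraries from the PFC and NAc of 48 mice were grouped by the genotype and treatment in the labels. Values are raw counts per Ensembl gene, deposited by the authors as whole numbers in 1 table per region. The submitters' processing notes name FastQC 0.11.9, Trimmomatic 0.38, HISAT2 2.2.0, edgeR, DESeq2 and the build GRCm38 (mm10), with no roles. The read counter, strand setting, annotation and gene filter were not stated in the sources used here. Of 19918 gene IDs, 19795 matched GENCODE M21, which gave symbols, positions and exon-union lengths, and 123 did not.

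Counts were tested with edgeR 4.0.16 in R 4.3.3 (quasi-likelihood, TMM scaling, filterByExpr, Benjamini-Hochberg adjustment over all genes tested, called below 0.05). Within a region, 8 groups and cohort were fitted over 48 libraries. Between regions, 96 libraries were fitted in 1 model with the animal as block and group and cohort terms for the NAc. Both regions of a mouse carry its number in the titles, which pairs them. Over 14712 genes the median correlation of same-animal deviations was 0.108, above 0.1 in 26 of 48 animals. The correlation was best with the library of the same number in only 8 of 48, so the counts bear out the pairing weakly. The SE was derived from the fold change and the F statistic, and 95% intervals use 38 residual degrees of freedom. Correlations used log2 (CPM + 0.5). Nothing in the labels says more of the replicates than 1 library per mouse and region. Reads without molecular identifiers are not independent molecules, so counting error alone understates the spread.

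Alternatives were DESeq2 1.42.0, limma-voom 3.58.1, RLE scaling, other filters on low counts, no cohort term, cohorts apart, no replicate block, each library left out and another gene length. Marker covariates and leaving aside libraries at the ends of the marker sums were chosen after seeing the data. The models were also tested on simulated counts. Of the 39 members, 2 are not reported here by name, though the counts and class sums hold them. Every other member is named, and values by library are given for the called member with the highest and with the lowest region difference of each class and at least 1 CPM in 1 region. Where a contrast called no member, those with the smallest p-values are given. Sequences are from RefSeq promoter windows, GRCm38.p6, and plots were drawn with matplotlib 3.10.9. Members, marker lists and partner lists were chosen with earlier results of these data known.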

Additional observations from a re-analysis of the deposited data

Results flagged for a closer look

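For Scn2b, Scn3b and Scn4b the highest and the lowest library of each group were compared with the rest of the group by Dixon's gap test, which chance passes in about 1 of 20 groups, and 48 groups were tested. Scn4b in the NAc of XXSry controls had 1 library, replicate 3, at 925 CPM, far above the others of its group (552.6 to 647 CPM, n = 6). The gap was 0.746 of the group's range, and the same library had the highest summed striatal markers (3604 CPM) and the lowest summed oligodendrocyte markers (3486 CPM) of all NAc libraries. Scn2b in the PFC of stressed XXSry mice had 1 library, replicate 4, at 328 CPM, below the others (347 to 356 CPM, n = 6). The gap was 0.670 of the range, and that library had the lowest summed cortical markers (2002 CPM) and the highest summed oligodendrocyte markers (1649.7 CPM) of the PFC. The part of cell makeup in either value was not tested.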

How the results depend on the processing

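The count of 35 channel genes called between regions (14 higher, 21 lower) was also 35 with no replicate block (the count at an unadjusted p below 0.05 was 36 in place of 35), and 35 by limma-voom with the block, with RLE scaling and with no filter on low counts. It was 31 of 33 tested with at least 1 CPM in at least 48 libraries, 37 in controls, 34 in stressed mice, 37 without the animals at the ends of the marker sums and 35 to 35 without each XX control animal in turn. With at least a 2-fold difference required it was 20. Cacna1s passed in controls (log2 fold change -0.42, adjusted p = 0.0129) and without those animals (-0.31, adjusted p = 0.0134), Cacna2d4 in controls (-0.23, adjusted p = 0.0131), Cacna1f without those animals (-0.36, adjusted p = 0.0417), and Cacna1c did not pass in stressed mice (-0.071, adjusted p = 0.151), all by edgeR. The cause was not tested. The counts of 0 for stress, chromosomes, gonads, stress within genotypes, interactions and region by factor were 0 under each alternative run for them. Each cohort apart was run for stress, chromosomes and gonads only, each library left out for all but region by factor, where each XX control animal was. Testes minus ovaries changed sign for Cacna1d in the PFC within cohort 3 (-0.012) and for Scn2a in the NAc within cohort 2 (-0.019). With the longest transcript as gene length Scn2a was at 79.3 RPKM in the PFC and 55.7 RPKM in the NAc, against 55.6 and 39.1. Some genes moved further: in the NAc Cacna2d3 was at 61.1 RPKM against 25.9 (rank 3 against 10) and Cacna1e at 47.6 against 28.1. The class shares and sums given above use the exon-union length only, and they would differ with the other length. Depth limits the genes with a mean below 1 CPM most: for some, such as Scn10a in the PFC, the 95% intervals for stress, chromosomes and gonads reach past 1.5-fold.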

Other observations

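Several libraries stood apart in 1 channel gene only or in genes that otherwise went together. Cacng5 was above 10 CPM in the PFC of 3 animals, at 10.98 CPM in animal 38, 13.5 CPM in animal 51 and 18.6 CPM in animal 15. The summed striatal markers of these PFC libraries were 158, 145 and 125 CPM, the last of them the lowest of the region. In the NAc, the stressed XY- animal 26 had the lowest Scn4b (204 CPM) and the lowest summed striatal markers (1231 CPM) of the 48 libraries, and the highest Cacna2d2 (193 CPM). These libraries were chosen after their values were seen.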
